A study of Mus musculus with 11 samples.

Results

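The Toll-like receptors of the macrophage surface and their endotoxin co-receptors were described in 9 genes: Tlr1, Tlr2, Tlr4, Tlr5, Tlr6, Tlr13, Cd14, Ly96 and Cd180. The genes were chosen by symbol and not by a measured value, but with earlier results of these data known. All 9 were found among the 35118 genes of the table that holds the genotype comparison and among the 35597 genes of the table that holds the site comparison, and all 9 passed the filter on low reads in both. The name of the set does not hold for Tlr13, which is known as an endosomal receptor for bacterial ribosomal RNA.

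Toll-like receptors recognise microbial molecules through leucine-rich repeats and signal through the adaptor MyD88, and in part through TRIF, to NF-kB and MAP kinases. TLR2 pairs with TLR1 or TLR6 to bind bacterial lipoproteins, TLR5 binds flagellin, and TLR4 binds endotoxin (lipopolysaccharide) only together with MD-2, the product of Ly96. CD14 is a lipid-anchored protein that hands endotoxin to TLR4 and MD-2, and CD180 (RP105) is a TLR4-like protein without a signalling domain that pairs with MD-1, the product of Ly86, and is also known from B cells.

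RNA was sequenced from 11 libraries of macrophages of C57BL/6 mice, aged 6 to 8 weeks when a transplantable lung tumor line (Lewis lung carcinoma) was injected under the skin. Cells were taken on day 14. In all groups the gene for Sin1, Mapkap1, was floxed. The groups were 4 libraries of tumor macrophages from Sin1fl/fl mice (WT_TAM), 4 of tumor macrophages from LysMCre;Sin1fl/fl mice (KO_TAM) and 3 of splenic macrophages from tumor-bearing Sin1fl/fl mice (WT_SP). Sin1 is a subunit of mTOR complex 2, and LysM-Cre is expressed from the Lyz2 locus in macrophages and also in neutrophils. Tumor macrophages were sorted as CD11b+ F4/80+ cells without Ly6G and Ly6C, and splenic macrophages as F4/80+ cells with low CD11b, without TCRβ, Ly6G and Ly6C. The sort and the organ therefore cannot be told apart. No label states whether libraries of a group come from separate mice. P-values therefore describe only how these libraries vary, and part of that variation may be technical. In bulk libraries, fewer cells of a type and less RNA per cell cannot be told apart.

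Levels are given as CPM, reads relative to the library total times the size factor of its table, and are compared only within a table. Libraries held between 7639550 and 13118534 reads. WT_TAM replicate 4 had the lowest total and the lowest mean correlation with its group (0.902 against 0.954 to 0.956), and among KO_TAM replicate 2 stood lowest (0.951 against 0.966 to 0.969). Mitochondrial transcripts made up between 0.432% and 6.58% of reads, with the 2 highest values in WT_TAM replicates 2 and 4 (6.58% and 5.79%). The Mapkap1 level was 71.1, 66.4, 59.7 and 30.7 CPM in WT_TAM and 44.0, 54.1, 43.3 and 45.9 CPM in KO_TAM. These overlapped (log2 fold change -0.22, adjusted p = 0.658), and since the count covers the whole gene it does not check the deletion. In the tumor libraries of the site table the summed level of 12 macrophage markers was 11500 to 20770 CPM, above the 3332 to 4114 CPM of WT_SP. The sum of 9 markers of splenic red pulp macrophages went the other way, at 4066 to 4551 CPM in WT_SP and 532 to 1121 CPM in WT_TAM, with 7 of the 9 lower in the tumor and 2 higher. In WT_SP the sum of 10 B cell markers was 7351 to 8409 CPM, against 20.2 to 106 CPM in WT_TAM, and all 10 were lower in WT_TAM. Sums of 6 plasma cell, 10 T cell and 12 neutrophil markers were also higher in WT_SP, at 2193 to 3537, 1624 to 1723 and 1102 to 3009 CPM, against 73.0 to 168, 109 to 156 and 119 to 238 CPM in WT_TAM. Of these markers, Elane had no read in any WT_TAM library.

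Tlr1 and Tlr6 are neighbours on the minus strand of chromosome 5 (GRCm38 with GENCODE vM21, chr5:64924679-64933563 and chr5:64952031-64960097), and their coding sequences were 74.8% identical over 2362 aligned bases. The longest run they share without a mismatch is 229 bases long. It lies inside 1 exon of each gene, at chr5:64925537-64925765 in Tlr1 and chr5:64953828-64954056 in Tlr6, coding bases 1468 to 1696 and 1507 to 1735. It is shown because a read from it cannot be assigned to either gene, and the sources used here do not give how such reads were counted. Of all 50-base windows of the Tlr1 transcripts, 15.3% also occur in Tlr6, and of those of Tlr6, 12.6% occur in Tlr1 or in Ctsq. None of the 50-base windows of the other members occurs in another gene, so levels of Tlr1 and Tlr6 are less certain than theirs.
Tlr1 and Tlr6 shared run: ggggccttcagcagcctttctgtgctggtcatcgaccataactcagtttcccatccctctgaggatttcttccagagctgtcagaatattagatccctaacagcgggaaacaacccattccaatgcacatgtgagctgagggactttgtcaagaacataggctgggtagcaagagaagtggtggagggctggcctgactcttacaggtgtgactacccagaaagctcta

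The other members lie apart. Tlr2 is at chr3:83836272-83841767 on the minus strand, Tlr4 at chr4:66827584-66930284, Tlr5 at chr1:182954788-182976044, Ly96 at chr1:16688051-16709611, Cd180 at chr13:102693558-102739629 and Tlr13 at chrX:106143204-106160493, these 5 on the plus strand. Coding sequence identity between Tlr2 and its partners was 54.5% with Tlr1 and 54.4% with Tlr6. It was 56.8% between Tlr4 and Cd180 and 58.2% between Ly96 and Ly86, the accessory proteins of these 2 receptors. Identity of unrelated genes under the same alignment was not measured, so these shares are a description only. RefSeq promoter windows (GRCm38.p6) were matched for 6 of the 9 members. The 250 bases before the start are shown for 2 genes that were higher in the tumor, Tlr2 (chr3:83841609-83841858, minus strand) and Tlr13 (chrX:106143025-106143274, plus strand), and 2 that were lower, Tlr1 (chr5:64933559-64933808, minus strand) and Cd180 (chr13:102693308-102693557, plus strand), each 5′ to 3′ on the gene's strand with matched letters in capitals.
Tlr2: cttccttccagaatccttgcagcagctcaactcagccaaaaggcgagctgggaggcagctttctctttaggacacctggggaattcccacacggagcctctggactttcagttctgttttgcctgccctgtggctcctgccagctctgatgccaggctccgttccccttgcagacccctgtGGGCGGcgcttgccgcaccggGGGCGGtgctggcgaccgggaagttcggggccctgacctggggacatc
Tlr13: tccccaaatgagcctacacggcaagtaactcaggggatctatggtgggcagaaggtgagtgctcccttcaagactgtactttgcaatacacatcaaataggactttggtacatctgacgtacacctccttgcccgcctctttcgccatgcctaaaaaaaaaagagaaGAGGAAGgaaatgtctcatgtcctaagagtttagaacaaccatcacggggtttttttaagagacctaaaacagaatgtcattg
Tlr1: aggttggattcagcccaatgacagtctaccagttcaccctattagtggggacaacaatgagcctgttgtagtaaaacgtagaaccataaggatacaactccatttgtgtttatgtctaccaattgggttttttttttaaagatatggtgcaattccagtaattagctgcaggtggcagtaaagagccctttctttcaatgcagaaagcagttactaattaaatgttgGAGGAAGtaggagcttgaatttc
Cd180: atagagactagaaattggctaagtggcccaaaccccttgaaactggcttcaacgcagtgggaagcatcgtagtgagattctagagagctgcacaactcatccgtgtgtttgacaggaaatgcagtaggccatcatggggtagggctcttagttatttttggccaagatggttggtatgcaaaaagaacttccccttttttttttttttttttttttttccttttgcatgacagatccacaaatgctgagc
Searched on both strands were GC box (GGGCGG), PU.1-type ETS site (GAGGAAG), C/EBP (TTGCNNAA), AP-1 (TGANTCA), octamer (ATGCAAAT) and TATA box (TATAAA), and the longer consensus letters of NF-kB and of the ETS-IRF composite. The Tlr2 window held 2 GC boxes, which begin 69 and 48 bases before the start, and 32.7% of 32817 promoter windows of this length hold at least one. The Tlr13 and Tlr1 windows each held the PU.1-type letters, 83 and 23 bases before the start, which occur in 10.6% of windows. The Cd180 window held none of the 8 motifs. Tlr1 and Cd180 each have another window that is not shown, at chr5:64932700-64932949 and chr13:102693297-102693546, and neither held any of the 8. No match overlapped another. The NF-kB letters as searched were in none of the 4 windows shown and in 0.357% of all windows. Other forms of the NF-kB site were not searched, so the windows may hold them.

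The first question was how receptor transcripts in tumor macrophages differed from those in splenic macrophages of the same kind of tumor-bearing mouse. Cd14 and Tlr2 were far higher in the tumor, Tlr4, Ly96, Tlr13 and Tlr5 were higher by less, and Tlr1 and Cd180 were lower. The sum of 12 macrophage markers was also higher in WT_TAM (11500 to 20770 against 3332 to 4114 CPM). The sums of red pulp macrophage and B cell markers were lower there. The part of the mix of cells in the differences of the members, higher or lower, was not tested. With limma on log2(CPM + 0.5) and Benjamini-Hochberg adjustment over 14239 genes, 8 of the 9 members passed an adjusted p of 0.05, 6 higher and 2 lower, and Tlr6 did not. Of all genes tested, 46.7% passed, 23.1% higher and 23.6% lower, so a call by itself is common in this comparison. The median log2 fold change was 1.60 over the members and -0.07 over all genes. Library values did not overlap between the groups for 7 members, 5 higher and 2 lower, while 56.1% of all genes did not overlap (26.3% higher and 29.8% lower). All 9 had an unadjusted p under 0.05, as did 53.9% of all genes. Without WT_TAM replicate 4 all 9 members passed and all 9 did not overlap. The shares of all genes given here come from all libraries, so the counts without this library cannot be set against them.

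**Figure D1:**
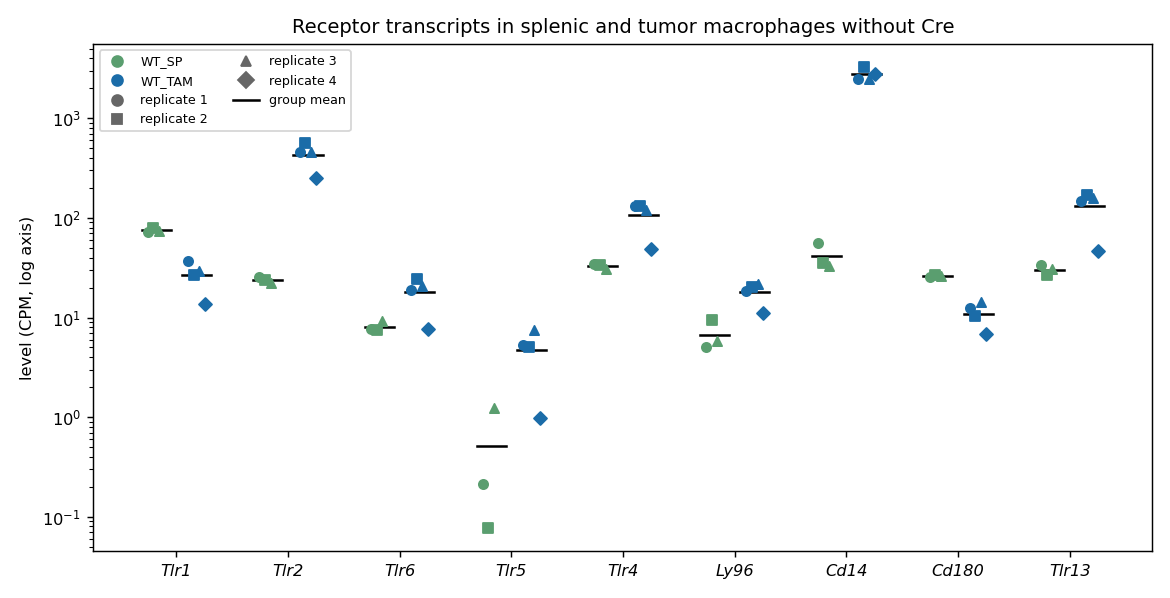
Level of each member in CPM on a log axis, in the 3 WT_SP and 4 WT_TAM libraries of the site table, with the replicate number as the symbol and the group mean as a line. Cd14 and Tlr2 show the widest gaps between the groups, Tlr1 and Cd180 sit lower in the tumor, and the WT_TAM diamond (replicate 4) lies below the other tumor libraries for every member but Cd14.

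Among the lipoprotein receptors, Tlr2, the common subunit, was at 25.6, 23.9 and 22.3 CPM in WT_SP and at 459, 563, 463 and 249 CPM in WT_TAM. The lowest tumor library was thus far above the highest spleen library. The log2 fold change was 4.09 ± 0.27 (SE, adjusted p = 6.58e-06), with means of 433 ± 132 (SD, n = 4) and 23.9 ± 1.65 CPM (SD, n = 3). Tlr1, the partner for triacylated lipoproteins, went the other way. It was at 73.0, 79.7 and 73.7 CPM in WT_SP and at 36.9, 26.8, 29.6 and 13.6 CPM in WT_TAM. The groups did not overlap, and the log2 fold change was -1.56 ± 0.31 (SE, adjusted p = 0.00346). Tlr6, the partner for diacylated lipoproteins, was at 7.61, 7.49 and 9.24 CPM in WT_SP and at 18.8, 24.6, 20.9 and 7.71 CPM in WT_TAM. Only WT_TAM replicate 4 fell within the spleen range. The difference of 0.99 ± 0.37 (SE, 95% interval 0.14 to 1.85) missed the threshold with all libraries (adjusted p = 0.0568) and passed it without WT_TAM replicate 4 (1.35, adjusted p = 5.55e-05).

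Transcripts of the partners of Tlr2 therefore stood in different proportion to those of Tlr2 in WT_SP and WT_TAM. A ratio of reads within a library shows this free of scaling, but not free of the mix of cells. The part of the B cell transcripts of WT_SP in these ratios was not tested. How reads shared by Tlr1 and Tlr6 were counted is not known. There were 2.85, 3.33 and 3.31 Tlr1 reads per Tlr2 read in WT_SP and 0.0804, 0.0477, 0.0641 and 0.0546 in WT_TAM. The geometric mean of the ratio was 52.1-fold lower in the tumor. Tlr6 reads per Tlr2 read were 0.342 ± 0.0635 (SD, n = 3) in WT_SP and 0.0402 ± 0.00641 (SD, n = 4) in WT_TAM, with geometric means 8.49-fold lower. Between the 2 partners, the ratio of Tlr1 to Tlr6 was 9.40 ± 1.35 in WT_SP and 1.56 ± 0.38 in WT_TAM. None of these 3 ratios overlapped between the groups.

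**Figure D2:**
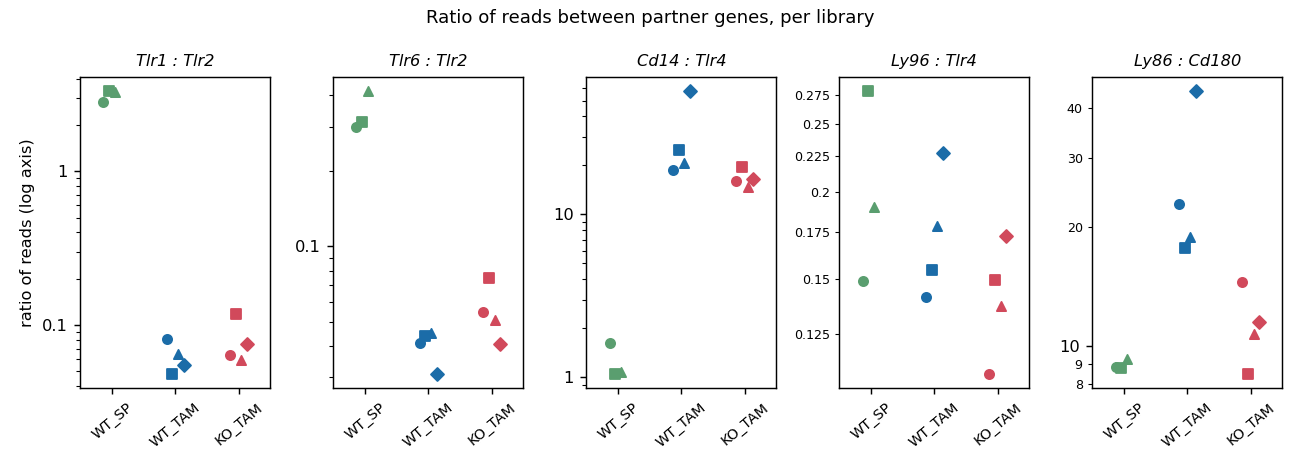
Reads of one gene per read of its partner in each library, on log axes, for WT_SP (3 libraries), WT_TAM (4) and KO_TAM (4), with the same symbols for replicates as in the plots of levels. Ratios of Tlr1 and Tlr6 to Tlr2 are lower in both tumor groups than in spleen and the ratio of Cd14 to Tlr4 is higher, while Ly96 to Tlr4 overlaps between all groups.

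Tlr5, the flagellin receptor, was the member with the fewest reads. It had 3, 1 and 17 reads in WT_SP (0.211, 0.0772 and 1.25 CPM) and 63, 52, 85 and 6 reads in WT_TAM (5.32, 5.10, 7.43 and 0.984 CPM). WT_TAM replicate 4 lay below WT_SP replicate 3, so the groups overlapped. The log2 fold change of 2.31 ± 0.62 (SE, adjusted p = 0.0146) depends on the pseudocount at such levels, and was 3.21 with 0.1 and 1.33 with 2 in place of 0.5 CPM. The call was lost without WT_SP replicate 1 (adjusted p = 0.0597) or replicate 2 (adjusted p = 0.0662).

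In the endotoxin complex, Cd14 showed the largest change of the 9 members. Its level was 55.8, 35.1 and 32.9 CPM in WT_SP and 2488, 3276, 2510 and 2762 CPM in WT_TAM. The 4 tumor libraries were close to each other, including replicate 4, and the log2 fold change was 6.08 ± 0.23 (SE, adjusted p = 5.05e-07). Tlr4, the signalling receptor, was at 34.1, 33.6 and 30.5 CPM in WT_SP and at 132, 131, 121 and 48.4 CPM in WT_TAM. All tumor libraries were above all spleen libraries (1.60 ± 0.35 SE, adjusted p = 0.00534). Ly96, whose product MD-2 holds the lipid part of endotoxin, was at 5.07, 9.34 and 5.79 CPM in WT_SP and at 18.7, 20.3, 21.6 and 10.98 CPM in WT_TAM. This difference of 1.35 ± 0.31 (SE, adjusted p = 0.00688) lost its call when libraries were scaled by their totals alone (0.90, adjusted p = 0.0503). That scaling moved the median of all genes to -0.52 and the split of calls to 2135 higher and 5629 lower, against 3287 and 3364.

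Transcripts of Cd14 were higher in WT_TAM by more than those of Tlr4, the receptor that CD14 serves. The ratio of their reads is free of scaling but not of the mix of cells, whose part was not tested. There were 1.63, 1.05 and 1.08 Cd14 reads per Tlr4 read in WT_SP and 18.9, 24.9, 20.8 and 57.1 in WT_TAM, with a geometric mean 22.3-fold higher. The ratio of Ly96 to Tlr4 overlapped, with 0.149 to 0.278 in WT_SP and 0.142 to 0.227 in WT_TAM. For the same libraries, the high Cd14 ratio of WT_TAM replicate 4 came with a Tlr4 level 37.8% of the mean of the other 3 and a Cd14 level 100% of it.

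Cd180 was at 25.3, 26.6 and 26.4 CPM in WT_SP and at 12.4, 10.4, 14.2 and 6.89 CPM in WT_TAM. No tumor library reached the spleen range, and the log2 fold change was -1.26 ± 0.26 (SE, adjusted p = 0.00382). Its partner Ly86 was at 260 ± 52.4 CPM in WT_TAM (SD, n = 4) and 234 ± 10.5 CPM in WT_SP (SD, n = 3), a difference of 0.13 ± 0.21 that was not called (adjusted p = 0.649). Reads of Ly86 per read of Cd180 were 8.83, 8.81 and 9.26 in WT_SP and 22.9, 17.8, 18.8 and 44.1 in WT_TAM, without overlap. Tlr1 and Cd180 were the 2 members that were lower in the tumor, and the summed B cell markers of 7351 to 8409 CPM in WT_SP moved with them. Their part in the result was not tested.

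Tlr13 was at 33.4, 26.7 and 30.9 CPM in WT_SP and at 146, 171, 158 and 46.7 CPM in WT_TAM. Replicate 4 was again lowest in the tumor but above all spleen libraries, and the log2 fold change was 1.93 ± 0.43 (SE, adjusted p = 0.00574). The other endosomal receptors did not move as one. Tlr8 was higher (1.77 ± 0.44, adjusted p = 0.0106) and Tlr9, a receptor for unmethylated CpG DNA, was lower (-1.84 ± 0.25, adjusted p = 0.000392). Tlr9 levels were low, at 1.13 ± 0.25 CPM in WT_TAM and 5.31 ± 0.77 CPM in WT_SP (SD). The part of B cell transcripts in the Tlr9 difference was not tested. Tlr3 and Tlr7 were not called (-0.32 ± 0.38, adjusted p = 0.518, and -0.30 ± 0.29, adjusted p = 0.421).

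Levels can be ranked between genes only per length, here as CPM per kilobase of the gene length behind the deposited values. In WT_TAM of the site table the order was Cd14 (1753 ± 233), Tlr2 (154 ± 46.9), Tlr4 (47.7 ± 17.7), Tlr13 (32.5 ± 14.1), Ly96 (28.3 ± 7.53), Tlr1 (10.4 ± 3.79), Tlr6 (6.95 ± 2.80), Cd180 (4.71 ± 1.34) and Tlr5 (1.47 ± 0.84) (SD, n = 4). The ranges of Tlr4, Tlr13 and Ly96 overlapped between libraries, as did those of Tlr1, Tlr6 and Cd180. Within each WT_TAM library, with these lengths, Tlr4 was above Tlr13 and Ly96, and Tlr1 was above Tlr6 and Tlr6 above Cd180. Ly96 was below Tlr13 in all but replicate 4 (17.4 against 11.6). In WT_SP the order was Tlr1 (29.4 ± 1.45), Cd14 (26.2 ± 8.00), Tlr4 (14.4 ± 0.86), Cd180 (11.2 ± 0.29), Ly96 (10.7 ± 3.62), Tlr2 (8.51 ± 0.59), Tlr13 (7.55 ± 0.84), Tlr6 (3.13 ± 0.38) and Tlr5 (0.160 ± 0.200) (SD, n = 3). Tlr1 and Cd14 overlapped there, and the Ly96 range of 8.04 to 14.8 covered those of Cd180 and reached into those of Tlr4, Tlr2 and Tlr13. The length behind the deposited values is 2268 bases for Tlr4 and the coding transcript in GENCODE has 4077, with which Tlr4 ranked 5 in both groups. With coding transcript lengths Cd14 (25.1) came before Tlr1 (24.9) in WT_SP, Ly96 ranked 3 there, and Tlr13 and Ly96 ranked 3 and 4 in WT_TAM.

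Around the receptors, 36 of 101 tested genes of 5 pathway lists were higher in the tumor and 15 lower, 51 in all. Of all genes tested, 23.1% were higher and 23.6% lower (46.7% in all), so the total was near the background. Of 16 partners and chaperones, 6 were higher and 3 lower. Clec7a (Dectin-1), which recognises fungal glucans and cooperates with TLR2, was higher by 5.17 ± 0.21, and Itgb2 by 1.92 ± 0.30. Itgam encodes CD11b, on which the 2 sorts differed (4.09 ± 0.19), so that sort and organ cannot be told apart in its value. Lower were Tlr9, Tlr12 (-1.70 ± 0.28) and Tlr11 (-2.11 ± 0.69), receptors that act in endosomes. Hsp90b1, the chaperone gp96 that most Toll-like receptors need to fold, was higher by 0.55 ± 0.19 (adjusted p = 0.0371).

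Of 32 tested adaptors and kinases, 2 were higher and 4 lower. Ticam2, the bridging adaptor TRAM of TLR4, was higher (17.3 ± 6.74 against 6.58 ± 1.21 CPM, log2 fold change 1.23 ± 0.37, adjusted p = 0.0253), as was Map2k3, a kinase upstream of p38 (1.10 ± 0.29, adjusted p = 0.0129). The adaptors Myd88 (0.47 ± 0.26, adjusted p = 0.169), Tirap (-0.07 ± 0.23, adjusted p = 0.839) and Ticam1 (-0.10 ± 0.19, adjusted p = 0.693) were not called. Btk (-1.06 ± 0.20), Syk (-1.18 ± 0.24) and Peli1 (-1.62 ± 0.35) were lower. Btk and Syk also signal from the B cell receptor, and the part of B cell transcripts in this difference was not tested.

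Of 14 transcription factors, 4 were higher and 5 lower. Atf3, which restrains Toll-like receptor responses, rose by 5.43 ± 0.32, Fos by 2.43 ± 0.40 and Cebpd by 1.83 ± 0.23. The NF-kB subunits Relb (-0.82 ± 0.16) and Rela (-0.75 ± 0.16) and the interferon regulator Irf3 (-0.99 ± 0.26) were lower. Of 20 genes listed here as inhibitors, whose action was not measured, 9 were higher. The 3 with the smallest adjusted p were Lgals3 (4.65 ± 0.21), Socs3 (3.64 ± 0.29) and Nfkbia, the inhibitor IkB-alpha (1.72 ± 0.19). Only Sigirr of this list was called lower (-2.19 ± 0.31). Of 19 tested genes known to be induced by endotoxin, 15 were higher. Cxcl2 was at 1623 ± 313 CPM in WT_TAM and 12.0 ± 2.56 CPM in WT_SP, Cxcl10 at 185 ± 24.7 and 4.94 ± 0.68 CPM, and Cxcl1 at 171 ± 72.6 and 0.215 ± 0.241 CPM. Lcn2, a neutrophil granule and acute-phase gene, was lower (-6.35 ± 0.54), as was Ccl5 (-1.08 ± 0.28). The neutrophil markers of WT_SP, at 1102 to 3009 CPM, moved with Lcn2, and their part was not tested.

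The second question was whether tumor macrophages with LysM-Cre differed from those without it in these receptors. No member passed an adjusted p of 0.05, and none had an unadjusted p under 0.05. Over all 12875 genes tested with limma, 0% passed, while 2368 (18.4%) had an unadjusted p under 0.05. Means were higher in KO_TAM for 6 members and lower for 3, and the median log2 fold change was 0.30, against 0.01 over all genes. Without WT_TAM replicate 4 the member median was 0.02, with 5 means higher and 4 lower. Of the 9, only Tlr4 had libraries that did not overlap, higher in KO_TAM, where 6.39% of all genes were higher without overlap and 8.74% lower. The WT_TAM libraries are those of the site comparison, so the 2 comparisons share them and are not independent.

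**Figure D3:**
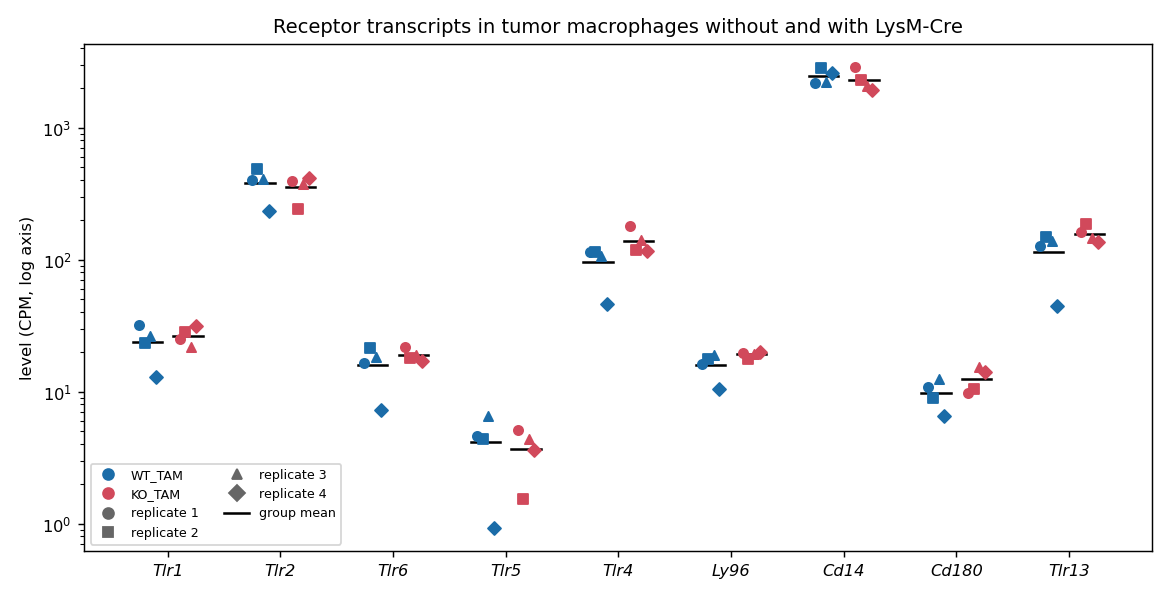
Level of each member in CPM on a log axis in the 4 WT_TAM and 4 KO_TAM libraries of the genotype table, with the replicate number as the symbol and the group mean as a line. The 2 groups overlap for each member but Tlr4, and WT_TAM replicate 4 is the lowest of the WT_TAM libraries for every member but Cd14.

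Tlr4 was at 114, 114, 107 and 45.7 CPM in WT_TAM and at 179, 117, 141 and 116 CPM in KO_TAM. The lowest KO_TAM library was just above the highest WT_TAM library. The means were 95.2 ± 33.2 and 138 ± 29.2 CPM (SD, n = 4 each), with a log2 fold change of 0.60 ± 0.30 (SE, 95% interval -0.07 to 1.28, adjusted p = 0.312). Without WT_TAM replicate 4 the difference was 0.28.

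Ly96 was at 16.2, 17.6, 19.1 and 10.4 CPM in WT_TAM and at 19.6, 17.6, 19.3 and 20.02 CPM in KO_TAM. Of the KO_TAM libraries, 3 were above the highest WT_TAM library and 1 was within the WT_TAM range (0.30 ± 0.22 SE, interval -0.19 to 0.79, adjusted p = 0.467). The difference was 0.12 without WT_TAM replicate 4. Cd14 was at 2159, 2837, 2216 and 2611 CPM in WT_TAM and at 2874, 2297, 2082 and 1915 CPM in KO_TAM. Both groups covered nearly the same range (-0.11 ± 0.19 SE, interval -0.52 to 0.31, adjusted p = 0.767), which was the narrowest interval of the 9. Cd14 reads per Tlr4 read were 16.8 ± 2.01 in KO_TAM and 30.4 ± 18.0 in WT_TAM, and they overlapped.

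Tlr2 was at 398, 487, 408 and 235 CPM in WT_TAM and at 396, 240, 372 and 415 CPM in KO_TAM. Each group had 1 low library, WT_TAM replicate 4 and KO_TAM replicate 2, and the difference was -0.09 ± 0.26 (SE, interval -0.67 to 0.50, adjusted p = 0.874). Tlr1 was at 32.0, 23.3, 26.2 and 12.9 CPM in WT_TAM and at 25.2, 28.2, 21.8 and 31.2 CPM in KO_TAM (0.23 ± 0.27, interval -0.38 to 0.84, adjusted p = 0.653). Tlr6 was at 16.3, 21.3, 18.4 and 7.28 CPM in WT_TAM and at 21.6, 18.0, 19.0 and 16.9 CPM in KO_TAM (0.34 ± 0.31, interval -0.34 to 1.02, adjusted p = 0.552). Without WT_TAM replicate 4 these 2 differences were -0.03 and 0.02. The signs of Tlr1, Tlr2 and Tlr5 changed under some scalings or left-out libraries.

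Tlr5 stayed low, at 4.62, 4.41, 6.56 and 0.930 CPM in WT_TAM and 5.11, 1.55, 4.34 and 3.62 CPM in KO_TAM, and its difference was the least certain (-0.04 ± 0.51 SE, interval -1.17 to 1.10, adjusted p = 0.976). Tlr13 was at 127, 148, 139 and 44.2 CPM in WT_TAM and at 162, 185, 145 and 136 CPM in KO_TAM. The difference of 0.58 ± 0.35 (SE, interval -0.20 to 1.36, adjusted p = 0.375) was 0.18 without WT_TAM replicate 4.

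**Figure D4:**
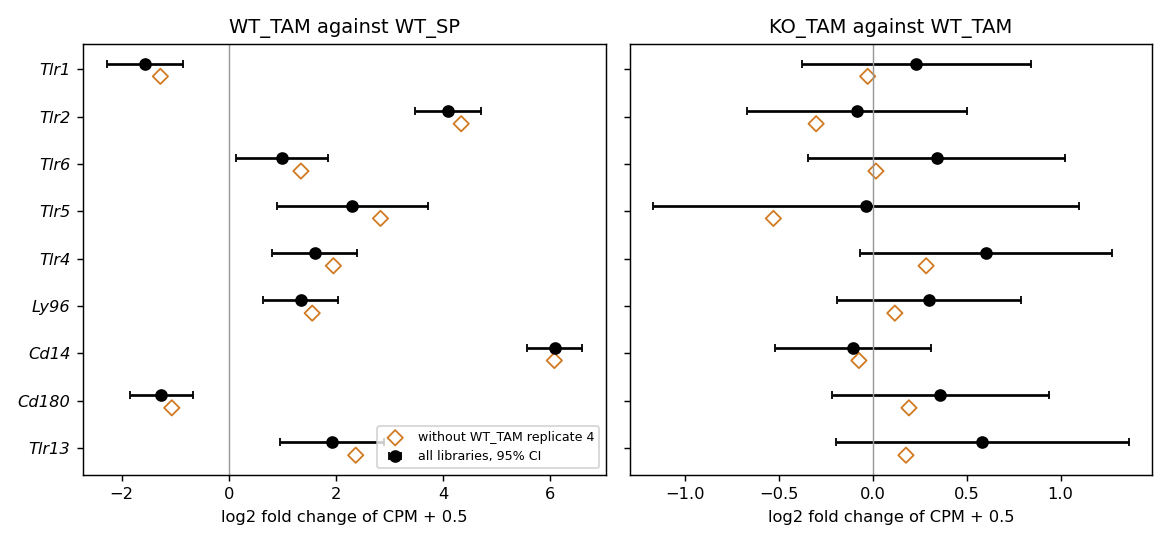
Log2 fold change of each member with its 95% confidence interval from all libraries (black points) and without WT_TAM replicate 4 (open diamonds), tumor against spleen on the left and KO_TAM against WT_TAM on the right, on different scales. On the left 8 of 9 members passed the adjusted threshold, and on the right every interval includes 0.

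Cd180 was at 10.8, 8.99, 12.5 and 6.51 CPM in WT_TAM and at 9.83, 10.5, 15.3 and 14.2 CPM in KO_TAM (0.36 ± 0.26 SE, interval -0.22 to 0.94, adjusted p = 0.457), and the difference was 0.19 without WT_TAM replicate 4. Ly86 was at 246, 160, 235 and 287 CPM in WT_TAM and at 143, 89.6, 164 and 164 CPM in KO_TAM. Only WT_TAM replicate 2 lay within the KO_TAM range, and the difference of -0.74 ± 0.25 did not pass (adjusted p = 0.195). Reads of Ly86 per read of Cd180 were 22.9, 17.8, 18.8 and 44.1 in WT_TAM and 14.5, 8.50, 10.7 and 11.5 in KO_TAM. This ratio did not overlap, and no test was run on it.

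None of the 100 tested pathway genes passed the threshold between KO_TAM and WT_TAM in the limma fit, and 20 had an unadjusted p under 0.05, a share near the 18.4% of all genes. The genes with the smallest p in each list are given as values. Among partners and chaperones, Cd36, a scavenger receptor that works with TLR2 and TLR6, averaged 269 ± 104 CPM with Cre and 85.1 ± 41.6 CPM without (1.78 ± 0.51, adjusted p = 0.146), and Tlr12 was at 1.53 ± 0.71 and 4.38 ± 1.51 CPM (-1.30 ± 0.35, adjusted p = 0.136). Btk among adaptors and kinases differed by 0.59 ± 0.21 (adjusted p = 0.197), Rel and Cebpd among transcription factors by 1.04 ± 0.40 and -0.62 ± 0.28 (adjusted p = 0.227 and 0.268), and Tnip1 and Sigirr among inhibitors by 0.61 ± 0.18 and -0.85 ± 0.32 (adjusted p = 0.148 and 0.224). Of endotoxin-induced genes, Ccl3 averaged 256 ± 57.0 CPM with Cre and 114 ± 39.5 CPM without (1.22 ± 0.29, adjusted p = 0.119) and Saa3 at 8.48 ± 7.23 and 17.01 ± 5.18 CPM (-1.46 ± 0.68, adjusted p = 0.282).

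The adaptors showed smaller differences: 0.16 ± 0.22 for Myd88, 0.35 ± 0.20 for Tirap, -0.19 ± 0.19 for Ticam1, the gene of that list with the smallest p among lower means, and -0.13 ± 0.30 for Ticam2 (adjusted p = 0.699, 0.351, 0.589 and 0.831). Hsp90b1 differed by 0.05 ± 0.18 (adjusted p = 0.889). Of the endosomal receptors, Tlr7 and Tlr8 had higher means in KO_TAM (0.54 ± 0.25 and 0.61 ± 0.37, adjusted p = 0.277 and 0.383), and Tlr3 and Tlr9 lower ones (-0.33 ± 0.35 and -0.13 ± 0.31, adjusted p = 0.619 and 0.844). Beside these values, 12 macrophage markers summed to 7751 to 9654 CPM in KO_TAM, below the 10160 to 19640 CPM of WT_TAM, and 8 endothelial markers to 82.5 to 145 CPM, above the 45.3 to 68.4 CPM of WT_TAM. The 10 fibroblast markers summed to 33.2 to 244 CPM in KO_TAM, below the 400 to 878 CPM of WT_TAM. Sums of 12 neutrophil markers were 278 to 954 and 113 to 206 CPM, and sums of 12 markers of eosinophils, basophils and mast cells were 261 to 991 and 25.7 to 183 CPM. The 9 monocyte markers summed to 2450 to 5311 CPM in KO_TAM and 1837 to 2667 CPM in WT_TAM, which overlapped. The part of all these cell types in the values of the receptors was not tested.

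WT_TAM replicate 4 set much of how the members varied among tumor libraries. In the genotype table its level was between 17.9% (Tlr5) and 60.5% (Cd180) of the mean of the other 3 WT_TAM libraries for 8 members, and 109% for Cd14. The median over all 12875 genes was 92.5%, and 44.8% of genes were lowest in this library. Its macrophage marker sum, 19640 CPM, was the highest of the 8 libraries. Over these 8 libraries, the 28 pairs among the members other than Cd14 had Pearson correlations of log2(CPM + 0.5) from 0.45 to 0.96. Without WT_TAM replicate 4, over 7 libraries, they ranged from -0.77 to 0.82 and 14 of the 28 were negative, so that the shared pattern rested on that library.

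The genes most like each member over the 8 libraries, chosen among genes with a mean of at least 10 CPM, are given as a description with the correlation over 7 libraries without WT_TAM replicate 4 in brackets. Myof was among the 2 genes nearest to Tlr4, at 0.987 (0.924). Ly96 was most like Ik at 0.989 (0.895) and Tlr7 at 0.982 (0.960), and Cd14 like Inppl1 at 0.858 (0.877) and Amz2 at 0.858 (0.872). Tlr2 was most like Cyp20a1 at 0.985 (0.976) and Tpm4 at 0.983 (0.973), Tlr1 like Tti1 at 0.975 (0.972) and Slc25a12 at 0.969 (0.849), and Tlr6 like Vps35 at 0.996 (0.954) and Yme1l1 at 0.995 (0.945). Tlr5 was most like Nom1 at 0.984 (0.969) and Stt3b at 0.979 (0.956), Tlr13 like Azi2 at 0.998 (0.966) and Gnai3 at 0.997 (0.985), and Cd180 like Prkdc at 0.958 (0.922) and Vrk2 at 0.956 (0.950).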

How the data were processed

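RNA was measured in 11 libraries, grouped by their titles. The submitters' processing notes name the build mm10 and, without their roles, DESeq2, HTSeq, HISAT, HISAT2, TopHat2 and SAMtools. Their settings were not given in the sources used here. In the 2 tables the authors deposited, values were treated as a score since they are neither whole nor in a named unit. Each value equals whole reads divided by gene length, library total and size factor, and multiplied by a size factor that is taken from the libraries in turn down the rows, so values as deposited are not on 1 scale within a library. Reads were therefore recovered, whole within 0.0002 reads or 1e-07 of their size, and made up 99.95% to 99.99% of each total. In the table of genotypes, 97 values of 35 genes were not whole reads. WT_TAM values were restored from the same library in the other table, and KO_TAM values by the round amount that gives whole reads (2 values of Fdps by a digit put back after the decimal point). No member is among them, but 6 pathway genes are (Irf3, Irf5, Irf7, Tbk1, Chuk and Socs1). In these, 13 deposited WT_TAM values were lower than the restored ones by 10 to 30 and 7 KO_TAM values were higher by 10 to 100, in deposited units.

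Log2(CPM + 0.5) was the response in limma 3.58.1 under R 4.3.3 (trend, robust, two-sided, no covariate), each comparison in its own table with its own groups. On this scale, changes of genes with few reads come out too small. A gene was kept when libraries numbering at least the smaller group reached the CPM that 10 reads have at median depth, and its reads totalled 15 or more. P-values were adjusted by Benjamini-Hochberg over all genes, with a threshold of 0.05. The fit was tested on simulated data, but the settings and outcome are not reported here, so no support is drawn from it. The 9 members, the gene lists and the tests were chosen with earlier results of these data known. Of other pathway genes, the text names up to 3 per list and direction with the smallest adjusted p among those called, or 1 per direction where none was, plus Ly86, Tlr3, Tlr7, Tlr8, Tlr9, Myd88, Tirap, Ticam1, Ticam2 and Hsp90b1, and for each member the 2 genes with the highest correlation, 1 of which is not reported here. Alternatives changed the pseudocount, filter, model, scaling, weights, block, samples and recovery of reads.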

Additional observations from a re-analysis of the deposited data

Results flagged for a closer look

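Tlr4 stood out in 1 library. In the genotype table, WT_TAM replicate 4 held 45.7 CPM of Tlr4 against 107 to 114 CPM in the other 3 WT_TAM libraries, a gap of 0.887 of the group's range, above Dixon's critical value for 4 samples. The same library in the site table held 48.4 CPM against 121 to 132 CPM (0.867 of the range), which is the same RNA scaled by another factor. Such a gap was looked for in 27 groups of values, of which chance alone marks about 1 in 20. The Tlr4 difference between KO_TAM and WT_TAM was 0.60 with this library and 0.28 without it, and that between WT_TAM and WT_SP 1.60 and 1.95.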

How the results depend on the processing

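Between KO_TAM and WT_TAM no member was called under any setting run, and the number of all genes called was 0 with all libraries and when each was left out in turn. It was 98 without the filter on low reads, 387 with array weights, 72 with all 3 groups in 1 fit, 4 with the values as deposited and 65 without WT_TAM replicate 4 and KO_TAM replicate 2. Pathway genes called were 5 with array weights and 2 with the values as deposited, and 0 otherwise. The 2 were Tbk1 and Chuk, and all 4 genes called as deposited held values that are not whole reads. Without both libraries 2 members did not overlap, Tlr4 and Ly96, a setting chosen after seeing the data. The share of all genes that did not overlap was not counted for this setting. This count of members is therefore not a result about them. Differences near 0 changed sign: Tlr5 was 0.0106 with library totals and 0.0251 with scaling to the 75th percentile, and Tlr1 -0.0874 with array weights and -0.0597 without both libraries. Leaving out 1 library at a time gave -0.531 to 0.271 for Tlr5, -0.303 to 0.0924 for Tlr2 and -0.0280 to 0.3998 for Tlr1. The cause was not tested. Scaling to the 75th percentile moved the median of all genes from -0.07 to 0.09 in the site comparison.

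Between WT_TAM and WT_SP all 9 members kept their direction in every setting, and 7 to 9 were called. Tlr6 was also called with voom, array weights, 1 fit for all groups, the 75th percentile and values as deposited. Genes called ranged from 4977 to 9133 when 1 library was left out, and pathway genes from 38 to 71. WT_SP has no replicate 4, so the replicate block also takes WT_TAM replicate 4 out of the site comparison, and its Tlr6 estimate equals that without this library. With the block, Tlr6 was called (1.35, adjusted p = 0.000198), 9115 genes were called in the site comparison and 0 in the genotype comparison, and no other member's call changed. Same-numbered libraries correlated in their deviations by -0.162 to 0.198 and -0.0937 to 0.098. These few values cannot settle whether such libraries share a mouse, a batch or only a number. Low reads limit Tlr5, and shared sequence limits Tlr1 and Tlr6.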
